A study of Mus musculus with 60 samples.

Results

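Cadherins and protocadherins are calcium-dependent adhesion proteins that stand in the cell membrane and hold neighbouring cells together. They were taken here as every gene of the deposited tables whose mouse symbol is Cdh followed by a number or starts with Pcdh. The rule found 85 genes under 84 symbols (Pcdha11 is listed under 2 Ensembl gene IDs), of 13986 genes in any table, and all 85 were present in all 10 tables. By structural class they were 4 type I cadherins, 13 type II cadherins, 2 other cadherins, 4 delta-1 protocadherins, 5 delta-2 protocadherins, 2 other non-clustered protocadherins, and 55 clustered protocadherins, of which 13 were alpha, 21 beta and 21 gamma genes.

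Classical cadherins (types I and II) bind the same or a related cadherin on the next cell and tie it to the actin skeleton through catenins. In the hippocampus they help to match axons with their targets and to hold synapses in place. The delta protocadherins are single genes with selective expression in neuron groups. The clustered protocadherins are made from 3 neighbouring gene arrays. In the alpha and gamma arrays a chosen first exon is joined to constant exons, while beta genes have a single exon. Each neuron uses a combination of isoforms, which helps it to tell its own branches from those of other neurons.

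The libraries came from C57BL/6 wild-type mice at postnatal day 105, sampled untreated (Homecage) or 45 minutes after Handling, Restraint or Swim. Each condition was sampled as whole, dorsal and ventral hippocampus (the dorsal end is linked mainly to spatial memory, the ventral end to emotion), which gave 12 groups of 5 poly(A) libraries each. No group carried a transgene or a drug, and the series record states 5 mice per condition. The labels do not say whether a dorsal and a ventral library came from the same mouse.

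The deposited data are 10 tables of the authors' own comparisons: each treatment against Homecage in each of the 3 tissues, and ventral against dorsal hippocampus in Homecage mice. The authors' deposited tables give 2 group means in estimated counts, a fold change, its log2, a p-value and an adjusted p for each of 13610 to 13784 genes. Group means summed to between 19912224 and 24995559 estimated counts. As the tables hold group means, no SD stands beside a level. The error given with a log2 fold change is the standard error implied by the authors' p, written ± SE. A member is said to have passed, risen or fallen where the authors' adjusted p was below 0.05. CPM, the usual scaling of counts to a common library total, were computed from the group means over the 13393 genes held in all tables and are not divided by length. The 3 treatment tables of a tissue share its Homecage libraries, and the regional table uses the dorsal and ventral Homecage libraries again, so these tables are not independent of each other.

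Per length of transcript, the member with the highest level in whole Homecage hippocampus was Pcdh1, a delta-1 protocadherin, at 64.25 CPM per kilobase. Pcdhgc5, one of the C-type gamma genes at the end of its array, followed at 36.62 CPM per kilobase. Pcdh20 stood at 29.74 CPM per kilobase and Cdh2, which encodes N-cadherin, the main classical cadherin of excitatory synapses, at 29.31 CPM per kilobase. The other end of the range was thinly covered: Cdh1, which encodes E-cadherin, an epithelial adhesion protein, had 0.77 CPM in whole Homecage hippocampus, and Cdh15, known as M-cadherin of muscle, 1.41 CPM. No error between libraries can be set on this order, so close neighbours in it cannot be ranked.

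The first comparison asks which members differ between the ventral and the dorsal end of the hippocampus at rest. By the authors' deposited table, 34 of the 85 members passed, which is 40.0% against 38.4% of all 13754 genes tested. Of these, 17 were higher and 17 lower in ventral tissue (20.0% of the members each way, against 18.4% and 20.0% of all genes). The share over all members was thus close to the background. It was uneven between the classes: 22 of 30 non-clustered members passed (73.3%, 16 higher and 6 lower) and 12 of 55 clustered members (21.8%, 1 higher and 11 lower). The median log2 fold change was 0.31 for the non-clustered and -0.15 for the clustered members, beside -0.0068 for all genes. In bulk tissue fewer cells of a type and less RNA per cell cannot be told apart.

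Among type I cadherins, 3 of 4 were higher in ventral hippocampus. The group mean of Cdh4, which encodes R-cadherin, was 12.51 CPM in dorsal and 18.49 CPM in ventral Homecage tissue, and its log2 fold change in the authors' deposited table was 0.52 ± 0.09 (adjusted p 2.4e-07). For Cdh2 the means were 121.8 and 154.5 CPM, with a log2 fold change of 0.30 ± 0.06 in the authors' deposited table (adjusted p 6.3e-07). Cdh1 showed a large ratio at a very low level, 0.65 against 1.66 CPM, or mean estimated counts of 15.2 and 41.4 per library. Its log2 fold change in the authors' deposited table was 1.26 ± 0.36 (adjusted p 0.0021). Meningeal fibroblast markers also differed between the regions: 5 of 8 were higher and 1 lower in ventral tissue in the authors' deposited table. Their summed level was 72.57 CPM in dorsal and 172.6 CPM in ventral Homecage tissue and none was at 0; their part in the Cdh1 value was not tested. Cdh15 did not pass, with a log2 fold change of -0.0019 in the authors' deposited table.

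Type II cadherins went both ways, and 61.5% of them passed, against 38.4% of all genes. Cdh18, Cdh7, Cdh20, Cdh6 and Cdh12 were higher in ventral hippocampus, and Cdh24, Cdh8 and Cdh9 were lower. The largest fall of any member was that of Cdh24, at 21.8 CPM in dorsal and 9.83 CPM in ventral Homecage tissue, with a log2 fold change of -1.19 ± 0.10 in the authors' deposited table (adjusted p 2.3e-33). Cdh9 is known to act at the synapses between dentate granule and CA3 cells. Cdh8 had 84.39 CPM in dorsal and 60.9 CPM in ventral tissue, a log2 fold change of -0.51 ± 0.07 in the authors' deposited table (adjusted p 3.9e-12). Cdh9 had 44.19 and 36.78 CPM, a log2 fold change of -0.30 ± 0.08 in the authors' deposited table (adjusted p 4.5e-04). All 6 dentate granule cell markers and 3 of 4 CA3 pyramidal cell markers were lower in ventral tissue in the same authors' deposited table. The granule cell markers summed to 554.8 CPM in dorsal and 236.8 CPM in ventral tissue, the CA3 markers to 270.2 and 206.1 CPM, and none was at 0; their part in the lower type II values was not tested.

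On the higher side, Cdh20 had 15.9 CPM in dorsal and 26.95 CPM in ventral Homecage tissue, a log2 fold change of 0.71 ± 0.08 in the authors' deposited table (adjusted p 1.5e-16). Cdh18 stood at 6.80 and 12.44 CPM, with a log2 fold change of 0.84 ± 0.11 in the authors' deposited table (adjusted p 9.6e-13). For Cdh7 the authors' deposited table gave 0.71 ± 0.14 (adjusted p 1.8e-06). Cdh6 and Cdh12 passed by less, at 0.41 ± 0.13 and 0.32 ± 0.11 in the authors' deposited table (adjusted p 0.0090 and 0.014). Subtracting the GC trend described below left neither of these past the threshold (adjusted p 0.0553 and 0.164). The 5 type II members that did not pass were Cdh5 (VE-cadherin, of endothelial junctions), Cdh10, Cdh11, Cdh19 and Cdh22, with log2 fold changes from 0.11 to 0.28 in the authors' deposited table. Cdh19 missed the threshold narrowly (adjusted p 0.0532), and with scaling by total counts it passed (0.32, adjusted p 0.0232). With the GC trend subtracted Cdh19 stood at 0.15 and did not pass (adjusted p 0.375).

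The promoters of Cdh24, Pcdh8 and Cdh20 are shown because these genes recur in the comparisons below: Cdh24 and Pcdh8 were lower in ventral tissue at rest and rose there after Swim, while Cdh20 did the reverse. Both comparisons use the ventral Homecage libraries. The windows run from 250 bases before to 50 after the RefSeq start on GRCm38.p6, 5′ to 3′ on the gene's own strand: chr14:54641315-54641614 (minus), chr14:79771263-79771562 (minus) and chr1:104768270-104768569 (plus). Capitals mark a TATAAA match.
Cdh24: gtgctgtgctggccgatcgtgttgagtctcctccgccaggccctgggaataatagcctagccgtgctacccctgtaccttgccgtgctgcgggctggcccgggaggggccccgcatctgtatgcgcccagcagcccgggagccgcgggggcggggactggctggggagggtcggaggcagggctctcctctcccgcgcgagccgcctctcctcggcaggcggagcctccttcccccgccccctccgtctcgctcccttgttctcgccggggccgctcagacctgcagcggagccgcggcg
Pcdh8: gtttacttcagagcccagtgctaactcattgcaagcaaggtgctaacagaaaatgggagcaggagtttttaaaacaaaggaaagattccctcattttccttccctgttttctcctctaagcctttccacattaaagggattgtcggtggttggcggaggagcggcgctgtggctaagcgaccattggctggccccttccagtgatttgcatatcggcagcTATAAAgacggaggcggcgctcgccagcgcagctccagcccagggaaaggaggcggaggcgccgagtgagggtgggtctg
Cdh20: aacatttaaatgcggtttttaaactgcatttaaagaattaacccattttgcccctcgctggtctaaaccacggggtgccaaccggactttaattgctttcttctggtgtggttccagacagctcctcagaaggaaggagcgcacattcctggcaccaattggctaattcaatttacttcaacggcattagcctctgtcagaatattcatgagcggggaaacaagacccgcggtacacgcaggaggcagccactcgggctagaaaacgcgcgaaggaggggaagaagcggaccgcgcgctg

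The Cdh24 window had a GC content of 73.3% and held 30 CG dinucleotides, the Pcdh8 window 54.3% and 14, and the Cdh20 window 50.7% and 18. The median over 32851 RefSeq promoters of the same length was 52.7% and 7. RefSeq entries were matched for 21 of the 30 non-clustered members. A search of both strands for TATAAA found it in the windows of Pcdh8 and Pcdh15, and in 13.6% of all promoters. The letters TGACGTCA, the cyclic AMP response element, were in the window of no matched member and in 1.79% of all promoters, and the shorter TGACG was in those of Cdh8, Pcdh9 and Pcdh10 and in 20.8% of all; the longer motif contains the shorter. TGANTCA, bound by AP-1 factors, was in no matched member's window and in 7.81% of all promoters. These are matches of letters within the windows alone.

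Cdh13, which encodes T-cadherin, a member held by a lipid anchor without the usual cytoplasmic tail, was the member of lowest p. Its group mean was 41.0 CPM in dorsal and 84.16 CPM in ventral Homecage tissue, a log2 fold change of 1.00 ± 0.07 in the authors' deposited table (adjusted p 5.0e-47). Cdh23, an inner ear tip-link cadherin, was low in both regions and did not pass (-0.07 ± 0.19 in the authors' deposited table).

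All 4 delta-1 protocadherins passed (38.4% of all genes did), 3 of them higher in ventral tissue. Pcdh11x, an X-linked member, had the largest ratio of any member, 4.63 CPM in dorsal against 13.33 CPM in ventral tissue, and a log2 fold change of 1.48 ± 0.12 in the authors' deposited table (adjusted p 9.6e-35). Pcdh7 followed with 48.93 and 88.41 CPM, at 0.81 ± 0.08 in the authors' deposited table (adjusted p 1.8e-20). Pcdh9 differed less, 107.6 against 139.7 CPM, at 0.33 ± 0.08 in the authors' deposited table (adjusted p 1.7e-04). The fourth, Pcdh1, went the other way, with 473.7 CPM in dorsal and 358.7 CPM in ventral tissue and a log2 fold change of -0.45 ± 0.07 in the authors' deposited table (adjusted p 2.1e-09).

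Of the 5 delta-2 protocadherins, 3 were higher and 1 lower (80.0% passed, against 38.4% of all genes). Pcdh10, which in mouse neurons takes part in removing synapses after activity, had 85.9 CPM in dorsal and 124.2 CPM in ventral tissue, a log2 fold change of 0.49 ± 0.06 in the authors' deposited table (adjusted p 2.4e-15). Pcdh19, the X-linked gene of a human epilepsy with intellectual disability, had 90.46 and 118.5 CPM, at 0.35 ± 0.07 in the authors' deposited table (adjusted p 1.6e-05). Pcdh18 was low in both (4.23 and 5.65 CPM) and stood at 0.37 ± 0.12 in the authors' deposited table (adjusted p 0.0091). Pcdh8, also called arcadlin, an activity-induced protein that draws N-cadherin back from the synaptic membrane, was lower, at 56.9 CPM in dorsal and 35.4 CPM in ventral tissue. Its log2 fold change in the authors' deposited table was -0.73 ± 0.12 (adjusted p 1.8e-08). Pcdh17 did not pass (0.14 ± 0.07 in the authors' deposited table, adjusted p 0.0878). Of the remaining non-clustered genes, Pcdh15, another inner ear tip-link gene, was higher in ventral tissue with 10.24 against 26.14 CPM, at 1.31 ± 0.11 in the authors' deposited table (adjusted p 1.3e-31). Pcdh20 was lower, with 172.7 and 128.5 CPM, at -0.46 ± 0.07 in the authors' deposited table (adjusted p 7.05e-11).

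**Figure D1:**
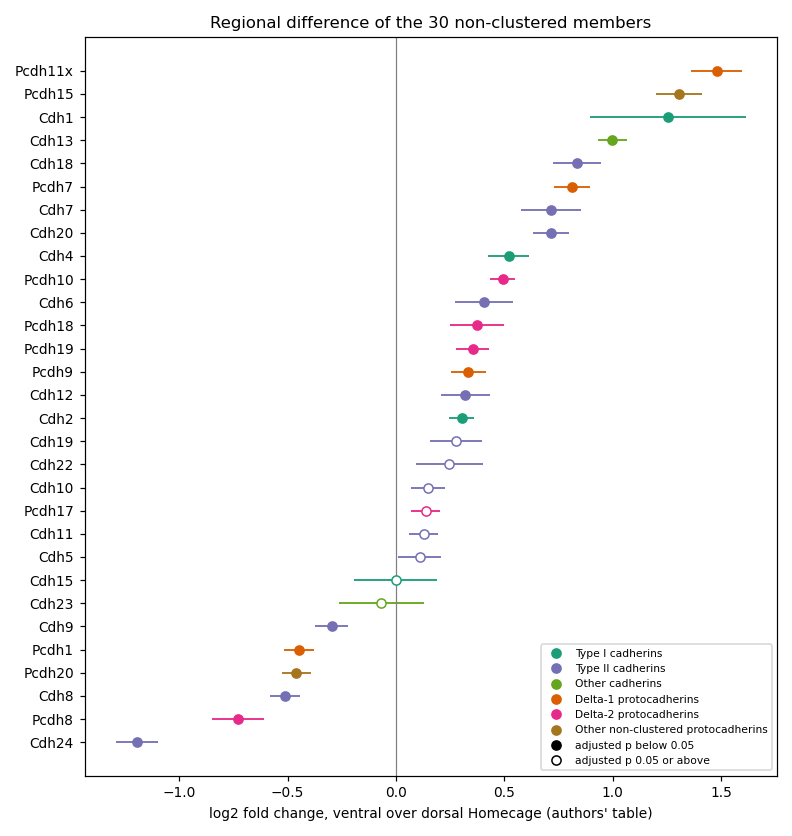
Log2 fold change of the 30 non-clustered members in the authors' deposited table, ventral over dorsal hippocampus of Homecage mice (5 libraries each), with bars of 1 implied SE, colours for the structural classes and filled points for an adjusted p below 0.05. Of the filled points, 16 lie right of 0, led by Pcdh11x at 1.48, and 6 lie left of it, led by Cdh24 at -1.19.

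Markers of other tissues and cell types differed between the regions as well. Of the markers tested in the authors' deposited table, 5 of 8 for thalamus were higher and 1 lower, 4 of 5 for neocortex layers higher and 1 lower, and all 7 for ventral hippocampus higher. Summed levels in dorsal and ventral Homecage tissue were 102.5 and 161.0 CPM for thalamus, 149.2 and 274.1 CPM for neocortex layers, and 55.98 and 257.3 CPM for the 6 ventral hippocampus markers held in all tables. All 8 oligodendrocyte markers were lower in the authors' deposited table (4477 and 3013 CPM summed), as were 4 of 5 microglia markers (237.8 and 202.4 CPM). None of these markers was at 0 in either group. Of 5 oligodendrocyte precursor markers 2 were higher and 0 lower in the authors' deposited table, with a median of 0.036 (337.0 and 388.4 CPM summed). The part of all these markers in the members' regional differences was not tested. Of the 5 markers in the dorsal hippocampus list 3 were higher in ventral tissue and 2 lower in the authors' deposited table, so the list as a whole did not mark the dorsal samples.

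The clustered protocadherins differed less, and their values carry an added uncertainty. Their genes share exons or closely related sequence, so counts for one gene can rest on an estimated split of shared reads. Beta genes were also thinly covered, at 2.80 to 14.75 CPM in whole Homecage hippocampus, which limits what can pass. The sum over a group's 5 libraries was a whole number (within 0.005) in 0.0% of cases for alpha, 1.19% for gamma and 28.2% for beta genes, against 43.9% for all genes. Sums that are not whole were also common in the delta protocadherins, with 18.8% whole for delta-1 and 25.0% for delta-2 genes, and less so in type I and type II cadherins, at 58.3% and 59.0%. None of the 13 alpha genes passed between the regions (38.4% of all genes did), with a median log2 fold change of 0.09 in the authors' deposited table. Unadjusted, 1 alpha gene had a p below 0.05 in the authors' deposited table, where 46.4% of all genes did.

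Of the 21 beta genes, Pcdhb2, Pcdhb7 and Pcdhb17 were lower in ventral tissue and none was higher (14.3% passed, against 38.4% of all genes). Pcdhb2 had 4.46 CPM in dorsal and 3.15 CPM in ventral tissue, a log2 fold change of -0.54 ± 0.14 in the authors' deposited table (adjusted p 6.5e-04). The authors' deposited table gave -0.36 ± 0.12 for Pcdhb7 and -0.30 ± 0.09 for Pcdhb17 (adjusted p 0.0089 and 0.0024). Among 21 gamma genes, 8 were lower and 1 higher (42.9% passed, against 38.4% of all genes). Pcdhgb1 was the lowest, with 21.76 and 16.13 CPM and a log2 fold change of -0.46 ± 0.09 in the authors' deposited table (adjusted p 5.9e-06). Pcdhga10, Pcdhgb7, Pcdhga12, Pcdhgb6, Pcdhga2, Pcdhga11 and Pcdhgc5 lay between -0.41 and -0.15 in the authors' deposited table. Pcdhga7 was the one that rose, from 20.49 CPM in dorsal to 27.24 CPM in ventral tissue, with a log2 fold change of 0.36 ± 0.09 in the authors' deposited table (adjusted p 4.2e-04). Neither Pcdhga11 nor Pcdhgc5 passed with scaling by total counts (adjusted p 0.0834 and 0.122), and with the GC trend subtracted neither they nor Pcdhga2 passed (0.10, 0.335 and 0.0560).

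**Figure D2:**
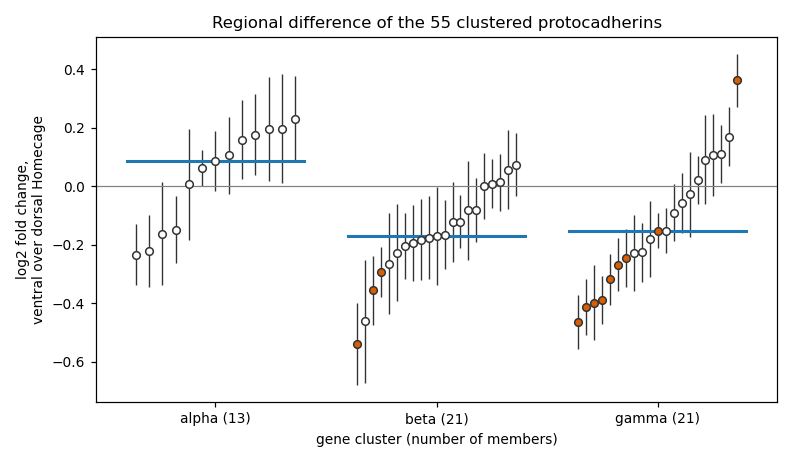
Log2 fold change of the 55 clustered protocadherins in the authors' deposited table, ventral over dorsal hippocampus of Homecage mice, one point per gene sorted within the alpha, beta and gamma arrays, with bars of 1 implied SE, filled points for an adjusted p below 0.05 and a horizontal line at each array's median. The medians are 0.09, -0.17 and -0.15, and 1 filled point, Pcdhga7, lies above 0.

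The regional direction was then followed in the treated groups, for which no regional table was used here; the ratio of group mean CPM was taken, with no test. Of the 34 members that passed at rest, 34 kept the sign of their ratio in Handling, 32 in Restraint and 32 in Swim, and 31 kept it in all 3 (91.2%, against 81.3% of the 5090 genes that passed at rest and were held in all tables). The exceptions were Cdh12, at -0.0077 in Swim, Cdh6, at -0.09 in Restraint, and Pcdhgc5. Cdh13 varied little, with log2 ratios of 1.04, 1.04, 0.82 and 0.93 in Homecage, Handling, Restraint and Swim. Others drew together. The log2 ratio of Cdh24 was -1.15, -0.71, -0.52 and -0.55 in the same order, that of Pcdh8 -0.68, -0.49, -0.18 and -0.06, and that of Pcdh1 -0.40, -0.19, -0.10 and -0.03. Pcdh11x went from 1.52 in Homecage to 0.91 in Swim.

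The ratio was smaller in size than at rest for 27 of the 34 in Handling (79.4%), 31 in Restraint (91.2%) and 28 in Swim (82.4%). For all genes that passed at rest the shares were 74.1%, 80.9% and 77.9%. Members and genes alike were selected on the Homecage ratio here, so a smaller ratio in the other groups is no separate result. Whole Homecage hippocampus lay between the dorsal and the ventral level for 22 of the 34 members (64.7%, and 67.4% for all genes that passed).

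**Figure D3:**
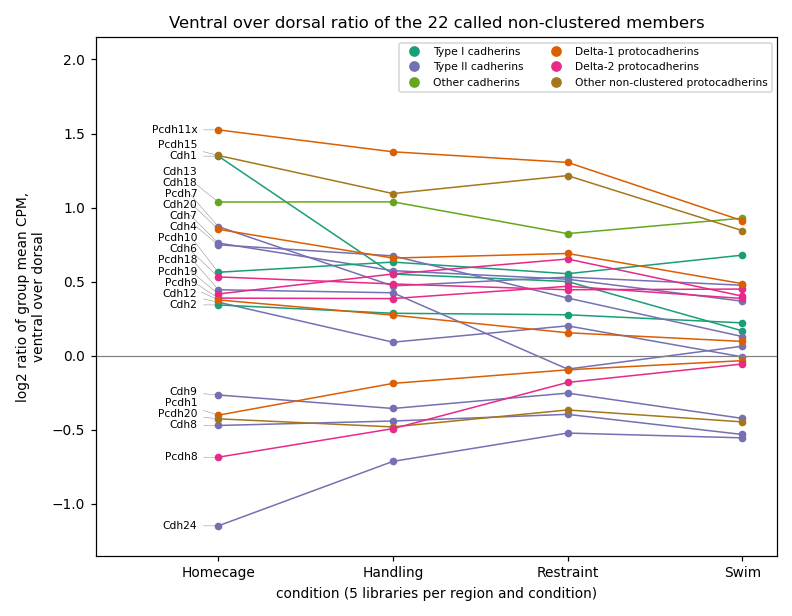
Log2 ratio of group mean CPM, ventral over dorsal hippocampus, in Homecage, Handling, Restraint and Swim mice (5 libraries per region and condition) for the 22 non-clustered members that passed between the regions at rest, coloured by class. Lines for Cdh24, Pcdh8 and Pcdh1 run from -1.15, -0.68 and -0.40 in Homecage to -0.55, -0.06 and -0.03 in Swim, while that of Cdh13 stays between 0.82 and 1.04.

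In whole hippocampus, no member passed after any treatment. The share of all genes that passed in the authors' deposited tables was 0.395% after Handling, 0.541% after Restraint and 0.395% after Swim. At an unadjusted p below 0.05 the authors' deposited tables held 4, 4 and 2 members (4.71%, 4.71% and 2.35%, against 5.06%, 3.92% and 5.2% of all genes). The lowest adjusted p of a member was 0.245 (Pcdhb19, Handling). Log2 fold changes of the 85 members in the authors' deposited tables ran from -0.40 to 0.23 after Handling, -0.27 to 0.61 after Restraint and -0.25 to 0.73 after Swim. The upper end after Restraint and Swim was Cdh1, at 0.77 CPM in Homecage, 0.63 in Handling, 1.18 in Restraint and 1.29 in Swim tissue. Of the members with the highest levels, Cdh2 had 142.0, 141.8, 142.1 and 139.9 CPM in whole Homecage, Handling, Restraint and Swim tissue, and Pcdh1 348.0, 335.3, 354.6 and 347.5 CPM. Pcdh8 had 43.28 CPM in Homecage and 46.28, 46.06 and 46.68 CPM after the treatments.

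Dorsal hippocampus gave 1 member. No member passed after Handling (where 0.125% of all genes passed) or Restraint (0.616%). At an unadjusted p below 0.05 there were 5 members after Handling (5.88%, against 2.84% of all genes) and 9 after Restraint (10.6% against 9.6%). The nearest to the threshold in Restraint was Pcdha9, with a log2 fold change of -0.47 ± 0.14 in the authors' deposited table (adjusted p 0.0774). After Swim, where 0.447% of all genes passed and 0.359% rose, Cdh19 rose. This type II cadherin is known from Schwann cell precursors and other glia. Its dorsal group means were 7.66 CPM in Homecage, 9.45 in Handling, 9.49 in Restraint and 10.86 in Swim, with Homecage the lowest, and the Swim log2 fold change in the authors' deposited table was 0.50 ± 0.12 (adjusted p 0.00783). Oligodendrocyte markers summed to 4477 CPM in dorsal Homecage and 5170 CPM in dorsal Swim tissue, with 1 of 8 higher in the authors' deposited table, a median of 0.21 and none at 0; their part in the Cdh19 value was not tested. With the GC trend subtracted Cdh19 stood at 0.38 and did not pass (adjusted p 0.202).

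In ventral hippocampus, no member passed after Handling (where 0.856% of all genes passed). At an unadjusted p below 0.05 there were 11 (12.9%, against 7.28% of all genes). Pcdhga4 came closest, at -0.29 ± 0.08 in the authors' deposited table (adjusted p 0.0622), and with the GC trend subtracted it passed. Restraint moved 3 of the 85 members, 3.53% against 2.39% of all genes (1 up and 2 down, against 1.48% and 0.916% of all genes). Cdh24 rose, from 9.83 CPM in Homecage to 12.94 CPM, with a log2 fold change of 0.40 ± 0.09 in the authors' deposited table (adjusted p 0.00145). Cdh20 fell, from 26.95 to 21.06 CPM, at -0.33 ± 0.10 in the authors' deposited table (adjusted p 0.0355). Cdh1 fell from 1.66 to 0.81 CPM, at -0.99 ± 0.26 in the authors' deposited table (adjusted p 0.0126). Its ventral mean was also below Homecage after Handling (0.6192 CPM) and Swim (0.946 CPM), though it passed in neither table. The lower Cdh1 level was thus not seen in Restraint alone. All 3 members moved toward their dorsal level. The Homecage mean was the extreme one of each gene's 4 ventral group means. The same held for 70.6% of the members and 64.0% of all genes. The regional comparison uses the same ventral Homecage libraries, so the move toward the dorsal level is no separate result.

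Beside these calls, none of 8 meningeal fibroblast markers passed in ventral Restraint in the authors' deposited table, with a median of -0.24 and summed levels of 172.6 CPM in Homecage and 141.8 CPM in Restraint. Of the 6 dentate granule cell markers 1 was higher (236.8 and 277.0 CPM summed), and of the 4 CA3 markers 1 was higher (206.1 and 233.5 CPM). None of these markers was at 0, and their part in the members' values was not tested. With the GC trend subtracted Cdh1 and Cdh20 passed (adjusted p 0.0145 and 0.0425) and Cdh24, at 0.29, did not (0.0621).

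Swim moved 6 ventral members, 7.06% against 6.94% of all genes, so the share was close to the background (3 up and 3 down, 3.53% each, against 4.65% and 2.29% of all genes). Pcdh1 rose from 358.7 to 419.4 CPM, with a log2 fold change of 0.23 ± 0.06 in the authors' deposited table (adjusted p 0.00747). Cdh24 rose from 9.83 to 12.65 CPM, at 0.37 ± 0.10 in the authors' deposited table (adjusted p 0.00939). The third to rise was Pcdh8, from 35.4 to 43.71 CPM, at 0.31 ± 0.09 in the authors' deposited table (adjusted p 0.0246). All 3 were among the members that were lower in ventral than in dorsal tissue at rest. Both comparisons use the ventral Homecage libraries, so this overlap is no separate result.

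The 3 that fell after Swim were Pcdh11x, Cdh20 and Pcdhb16. Pcdh11x went from 13.33 to 10.54 CPM, at -0.32 ± 0.10 in the authors' deposited table (adjusted p 0.0270). Cdh20 went from 26.95 to 22.4 CPM, at -0.26 ± 0.08 in the authors' deposited table (adjusted p 0.0357). Pcdhb16, a beta gene that did not pass between the regions at rest, went from 9.066 to 7.201 CPM, at -0.32 ± 0.10 in the authors' deposited table (adjusted p 0.0385). Handling gave Cdh24 12.42 CPM, Pcdh8 41.97 CPM and Cdh20 22.32 CPM in ventral tissue, levels near those after Swim, but the authors' deposited table held none of them past the threshold (adjusted p 0.445, 0.749 and 0.159). In the ventral Handling libraries all 10 choroid plexus markers tested were higher in the authors' deposited table, with a median of 3.60. Ventral Restraint and ventral Swim held 5 of these markers each. The count of 10 and its median can thus rest in part on markers held only where they are high. The 5 markers held in all tables summed to 51.84 CPM in Homecage and 1286 CPM in Handling, and their part in the members' values was not tested. Of 8 thalamus markers 3 were lower in ventral Swim in the authors' deposited table (161.0 and 138.6 CPM summed, median -0.31) and 1 of 4 CA3 markers was higher (206.1 and 230.5 CPM). None was at 0, and their part in the members' values was not tested.

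**Figure D4:**
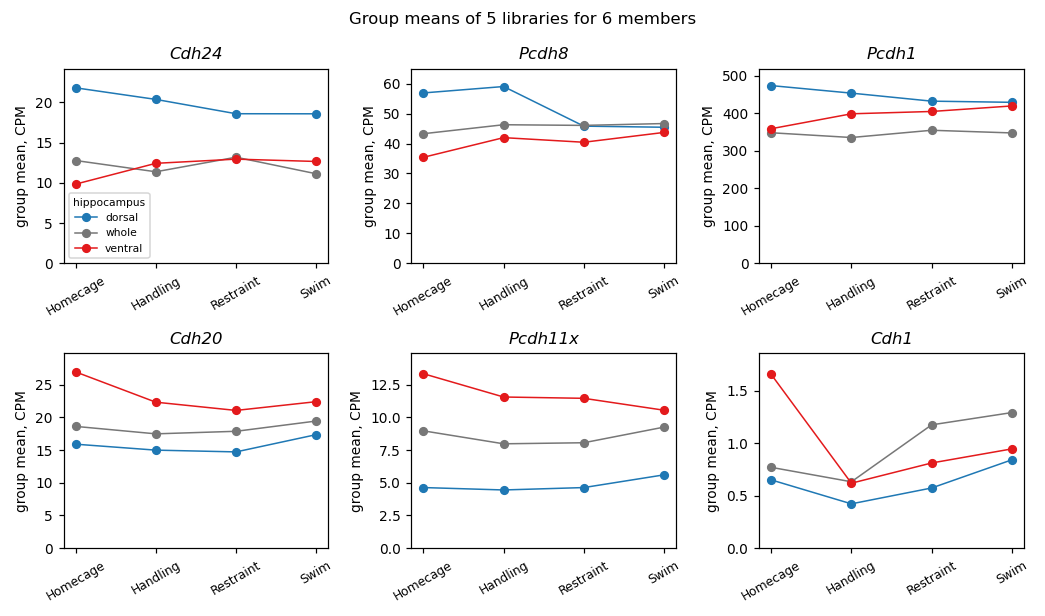
Group mean CPM of Cdh24, Pcdh8, Pcdh1, Cdh20, Pcdh11x and Cdh1 (5 libraries per group) in dorsal, whole and ventral hippocampus across Homecage, Handling, Restraint and Swim, each panel with its own axis from 0. Ventral Cdh24 stands at 9.83 CPM in Homecage and between 12.42 and 12.94 CPM after the treatments, and ventral Cdh20 at 26.95 CPM in Homecage and between 21.06 and 22.4 CPM after them.

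Whether the ventral and the dorsal response differ was tested directly, gene by gene, by taking the dorsal from the ventral log2 fold change and dividing by the combined implied SE (normal approximation, Benjamini-Hochberg adjustment over all genes). The test treats the dorsal and ventral libraries as separate samples. For Handling no member passed (where 0.0889% of all genes did), and 2 had an unadjusted p below 0.05 (lowest adjusted p 0.998). For Restraint 3 of 85 passed, 3.53% against 1.98% of all genes: Cdh24, Pcdh8 and Pcdh1. Cdh24 stood at -0.25 in dorsal and 0.40 in ventral Restraint in the authors' deposited tables, a difference of 0.65 ± 0.15 (adjusted p 0.00752). Pcdh8 stood at -0.31 and 0.20 in the authors' deposited tables, a difference of 0.51 ± 0.15 (adjusted p 0.0426). For Pcdh1 the difference was 0.32 ± 0.09 (adjusted p 0.0424). With scaling by total counts Cdh24 alone passed. In the dorsal Restraint libraries, which enter these differences, 4 of 7 choroid plexus markers tested were higher in the authors' deposited table, with a median of 2.71. Dorsal Swim held 6 of the markers and ventral Restraint 5, so this count and median can rest in part on markers held where they are high. The 5 markers held in all tables summed to 78.35 CPM in dorsal Homecage and 1357 CPM in dorsal Restraint, against 51.84 and 63.98 CPM in ventral tissue; their part in the differences was not tested.

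For Swim 10 of 85 members passed the test of difference, 11.8% against 10.2% of all genes. The response was more positive in ventral tissue for Pcdh8 (0.64 ± 0.15, adjusted p 0.00321), Cdh24 (0.61 ± 0.14, 0.00217) and Pcdh1 (0.38 ± 0.09, 0.00242). It was more negative in ventral tissue for Cdh19, Cdh7, Pcdh11x, Pcdh15, Cdh20, Pcdh7 and Pcdh9, with differences from -0.64 to -0.28. Among these, Cdh7 stood at 0.27 in dorsal and -0.35 in ventral Swim in the authors' deposited tables and Pcdh15 at 0.28 and -0.21, although neither passed in either table alone. Of the 10 members, 3 were lower and 6 higher in ventral than in dorsal tissue at rest; Cdh19 had not passed there. In each of these 9 the difference in response had the sign opposite to the regional difference. Both use the same Homecage libraries, so the opposite signs are no separate result.

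Transcript GC content moved with these values. Across all genes of the ventral Swim table, Spearman's rho between transcript GC content and log2 fold change in the authors' deposited table was 0.693 over 13728 genes, and 0.561 over the 85 members; genes are not independent replicates. The median log2 fold change there was -0.13 in the 10% of genes of lowest GC content and 0.19 in the 10% of highest. In dorsal Swim the relation was reversed, with a rho of -0.597, and for ventral over dorsal at rest it was -0.366. The 3 members that rose in ventral Swim had a GC content of 61.2% (Cdh24), 60.7% (Pcdh1) and 59.8% (Pcdh8), against a median of 50.2% over all genes. Those that fell had 49.9% (Cdh20), 43.0% (Pcdhb16) and 36.3% (Pcdh11x).

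With the trend on GC content subtracted from every gene of a table, 0 members passed in ventral Swim. At an unadjusted p below 0.05 the authors' deposited table had held 19 (22.4%, against 24.0% of all genes). Cdh24 then stood at 0.16, Pcdh8 at 0.14, Pcdh1 at 0.04, Cdh20 at -0.24, Pcdhb16 at -0.23 and Pcdh11x at -0.14, with adjusted p between 0.193 and 0.987. None of the 3 differences in response to Restraint and none of the 10 to Swim passed after this step (adjusted p at least 0.343), while 12 and 37 genes of the whole table did. For Cdh20 the Swim difference was about as large after subtraction (-0.35) as before (-0.37). The regional comparison at rest kept more of its calls: 32 members passed after subtraction, 16 higher and 16 lower, of which 29 were among the 34. Sizes there moved both ways. Pcdh1 went from -0.45 to -0.18 (adjusted p 0.0347), Pcdh8 from -0.73 to -0.49 and Cdh24 from -1.19 to -0.91. In contrast, Cdh8 went from -0.51 to -0.60 and Pcdh20 from -0.46 to -0.55. For ventral Swim and for the regions, the share of all genes that passed after subtraction is not given here.

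**Figure D5:**
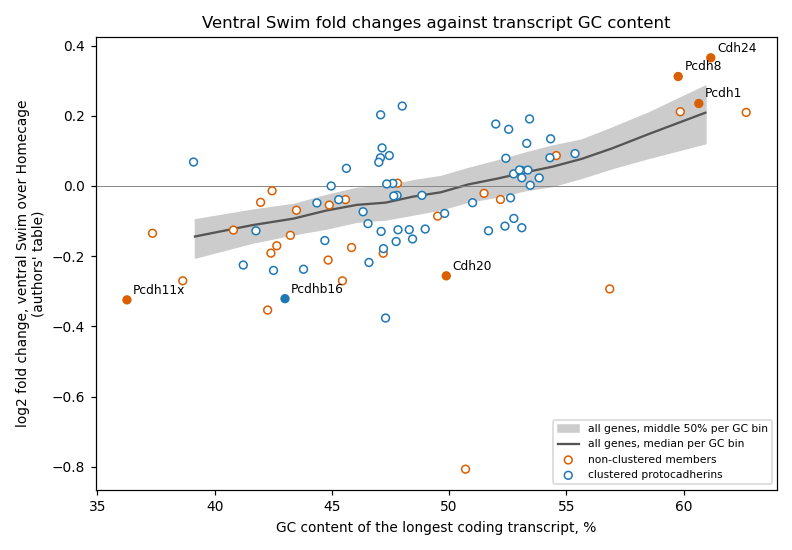
Log2 fold change of the 85 members in ventral hippocampus after Swim, from the authors' deposited table, against the GC content of each gene's longest coding transcript in percent, with the median of all genes in 16 bins of GC content as a line, the middle 50% of genes as a band, and filled, named points for an adjusted p below 0.05. The line climbs with GC content; Cdh24, Pcdh8 and Pcdh1 lie at its upper end and Pcdh11x beyond its lower end.

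Partners of the members were examined as a list of catenins, related atypical cadherins, nectins, protocadherin effectors, processing enzymes and regulators of the clustered arrays, of which 51 to 53 were tested per table. None of them passed in any whole or dorsal treatment table or in ventral Handling and Restraint. After ventral Swim 8 of 53 passed in the authors' deposited table (15.1%, against 6.94% of all genes), 5 higher and 3 lower. With the GC trend subtracted, a step chosen for the partners after their values were seen, Fat2 alone passed (-0.94, adjusted p 0.0391). The share of all genes that passed after that step is not given here. Celsr3, an atypical cadherin of axon guidance, had a log2 fold change of 0.21 ± 0.06 in the authors' deposited table (adjusted p 0.00846). Fjx1, a secreted relative of a Drosophila kinase that modifies Fat cadherins, and Nectin1, an adhesion protein of synaptic contacts, stood at 0.23 and 0.20 in the authors' deposited table. Rad21 and Smc3, subunits of the cohesin complex that links promoters and enhancers in the clustered arrays, fell by 0.16 and 0.17 in the authors' deposited table (adjusted p 0.0175 and 0.0260). Fat2 was at -0.91 in the authors' deposited table from a mean of 31.2 estimated counts.

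Between the regions at rest, 25 of 53 partners passed in the authors' deposited table (47.2%, against 38.4% of all genes), 11 higher and 14 lower. With the GC trend subtracted 23 passed, of which 19 were among the 25. The share of all genes that passed after this step is not given here, so the 23 are no result about the partners alone. All 7 protocadherin effectors that passed, of 11, were lower in ventral tissue, among them Ptk2b, a kinase bound by clustered protocadherins, at -0.69 ± 0.06, and Wasf1, an actin regulator, at -0.40 in the authors' deposited table. Of 13 atypical cadherins 5 were higher and 5 lower in the authors' deposited table, with Dchs2 at 0.99, Fat1 at 0.37 and Celsr3 at -0.31. With the GC trend subtracted Dchs2 and Fat1 passed and Celsr3, at -0.14, did not (adjusted p 0.0672). Fat2 rose in the authors' deposited table from a mean of 1.2 estimated counts per dorsal library to 31.2 per ventral library. Of 12 catenins and plaque proteins 3 were higher and 1 lower in the authors' deposited table, and of 10 regulators of the clustered arrays 1 was higher.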

How the data were processed

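Poly(A) RNA of 60 libraries in 12 groups of 5 was sequenced. The estimated counts, fold changes, log2 fold changes, p-values and adjusted p-values are the authors' deposited values, per the file headers. Each mean is the deposited mean estimated count of 5 libraries, not scaled for depth. Bowtie 0.12.2 and the build mm8 appear in the submitters' processing notes with no role; the test, aligner and counter are otherwise not given in the sources used. No column of single libraries was used.

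The deposited fold change is treatment over Homecage or ventral over dorsal. Benjamini-Hochberg adjustment of the deposited p-values gave the deposited adjusted p. The implied SE is the size of the log2 fold change over the normal quantile of its p. CPM divide a group mean by its total over 13393 genes. The difference of ventral and dorsal responses was adjusted over 13500 to 13533 genes with each repeated entry counted once. GC content and length are those of the longest coding transcript (GENCODE annotation of GRCm38); trends were fitted by lowess (fraction 0.3; statsmodels 0.14.6). Alternatives were thresholds of 0.01 and 0.1, scaling by total counts, subtraction of the GC or length trend, a mean count of at least 100 and another treatment of repeated entries.

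Named genes are members past the threshold in any table, the 4 of highest level per length, up to 3 of lowest p per class and table, up to 6 partners per table, and those said to have missed the threshold. Members, lists and tests were chosen with earlier results of these data known. The labels do not tie libraries to animals, so p-values measure the spread between these libraries, part of which may be technical. Depth per group mean was 19912224 to 24995559 estimated counts over the genes held.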

Additional observations from a re-analysis of the deposited data

Results flagged for a closer look

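The response of 3 of 85 members to Restraint differed between ventral and dorsal hippocampus by the test of the difference itself. Of all genes 1.98% passed that test. Ventral minus dorsal, the log2 values were 0.65 for Cdh24, 0.51 for Pcdh8 and 0.32 for Pcdh1. The response of 10 of 85 members to Swim differed in the same test, where 10.2% of all genes passed, so the share was close to the background. The log2 differences were 0.64 for Pcdh8, 0.61 for Cdh24 and 0.38 for Pcdh1. They were -0.64 for Cdh19, -0.62 for Cdh7, -0.59 for Pcdh11x, -0.49 for Pcdh15, -0.37 for Cdh20, -0.36 for Pcdh7 and -0.28 for Pcdh9. None of these 13 differences passed once the GC trend was removed. The dorsal and ventral Homecage libraries enter every one of them.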

How the results depend on the processing

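No call of a member or difference changed direction under any alternative run. In the counts of members called, an adjusted p below 0.01 gave 1 in ventral Restraint, 2 in ventral Swim, and 1 and 4 for the differences in response to Restraint and Swim. An adjusted p below 0.1 gave 1 in dorsal Restraint (Pcdha9), 1 in ventral Handling (Pcdhga4), 5 in ventral Restraint and 10 in ventral Swim. With the GC trend subtracted the counts were 0 in dorsal Swim, 1 in ventral Handling, 0 in ventral Swim, and 0 for the differences in response to both Restraint and Swim. Scaling by total counts left 1 difference in response to Restraint, and subtracting the length trend 6 in Swim, of which 5 were among the 10. The cause was not tested. Every other count was within 1.5 times the one reported, and the regional count lay between 30 and 39 under every alternative. The share of all genes under each alternative is not given beside these counts, so they are no result about the members alone. Of the 57 calls of members over the 10 tables and 3 tests of difference, 26 were lost and 4 gained with the GC trend subtracted, 4 lost and 5 gained with scaling by total counts, and 7 lost and 4 gained with the length trend. Total-count scaling moved the fold changes of all genes by at most 0.041 (log2).

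No paired analysis was possible because the deposited tables hold group means and no value of a single library; for the same reason the replicate block and the planned fits without each replicate were not run. Depth limits Cdh1 most, with mean estimated counts of 15.2 to 41.4 per library in the regional comparison. The alternatives on repeated entries of the tables and on GC content for the partners were chosen after seeing the data.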

Other observations

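Summed by class, the gamma array gave 736.6 CPM in whole Homecage hippocampus, delta-1 protocadherins 548.6, delta-2 protocadherins 357.8, type II cadherins 343.8, the alpha array 175.7, type I cadherins 159.3 and the beta array 145.5 CPM. Pcdh1 alone made up 348.0 CPM of the delta-1 sum. These sums are not scaled by transcript length and carry no error.

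In ventral hippocampus the Homecage group mean was the highest of the 4 conditions for 18 of 30 non-clustered members (60.0%, against 33.4% of all genes). It was the lowest for 4 of them (13.3%, against 30.5% of all genes). For the 55 clustered members it was the highest for 26 (47.3%) and the lowest for 12 (21.8%). In dorsal hippocampus it was the highest for 29 of 55 clustered members (52.7%, against 29.2% of all genes) and for 8 of 30 non-clustered members (26.7%). In whole hippocampus it was the highest for 26 of all 85 members (30.6%, against 23.3% of all genes). Transcript GC content had a median of 45.7% for the non-clustered members, 47.8% for the clustered members and 50.2% for all genes. Its rho with log2 fold change over all genes was 0.446, 0.381 and 0.693 in ventral Handling, Restraint and Swim. In the same order the dorsal values were -0.342, -0.473 and -0.597. The part of GC content in these counts was not tested, and no test was run on the counts.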
